A study of Mus musculus with 12 samples.

Results

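Ribosomal protein genes encode the proteins of the cytosolic ribosome, and they were followed here in the brains of mice given repeated bacterial lipopolysaccharide. Members were the protein-coding genes of the deposited expression table whose names begin with Rpl or Rps and a digit, together with Rplp0, Rplp1, Rplp2 and Rpsa, and without the S6 kinases whose names begin with Rps6k. The rule found 93 of 56748 genes, 21970 of them coding. By name, 77 of the 93 are ribosomal proteins proper, 46 of the large and 31 of the small subunit. The other 16 are 7 paralogs expressed beside or instead of a standard protein, 8 retrocopies or pseudogene-named genes listed as coding, and Rps19bp1, a nucleolar protein that binds Rps19 and matched by its name alone. Among the members, 86 had at least 0.5 FPKM (fragments per kilobase of gene, scaled to library size) in at least 2 of 12 libraries and were tested, and 7 did not reach that level.

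Brain RNA came from 12 adult C57BL/6 mice in 3 arms of 4, each with 2 females and 2 males, and 1 library was made per mouse. Control mice received phosphate-buffered saline (PBS). The LPS arm received lipopolysaccharide, a component of the outer wall of bacteria that activates innate immune cells, into the abdominal cavity at 0.5 mg/kg daily for 7 days. The LPS+DMA arm received the same course with N,N-dimethylacetamide, a small organic solvent used as a drug excipient, by the same route for 7 days, at a dose that the sources used here do not state. No arm with DMA alone was analysed here, so the comparisons show DMA on top of LPS.

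Cytosolic ribosomal protein mRNAs are among the most abundant mRNAs of most cells, and their products assemble with ribosomal RNA in near-equal numbers. Most carry a terminal oligopyrimidine (TOP) start, a C followed by a run of pyrimidines at the very beginning of the mRNA. The kinase complex mTORC1 controls the translation of TOP mRNAs, in part through the protein LARP1, so their mRNA level and their translation can move separately. In the brain these mRNAs are found in neurons and glia and also in neuronal processes.

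The start of the mRNA and the near-identical copies of these genes bear on how their values can be read, and the sequences that show this come first. The windows run from 15 bases before to 15 bases from the annotated start in the RefSeq promoter table (GRCm38.p6), 5′ to 3′ on the gene's strand. Capitals mark a C followed by at least 4 bases that are each C or T, with that C within 5 bases of the annotated start. Rps6 (chr4:86857353-86857382, minus strand), Rps9 (chr7:3704026-3704055, plus strand) and Rps2 (chr17:24720048-24720077, plus strand) are shown because results below turn on them. Rps10 (chr17:27635230-27635259, minus strand) has a tract although almost no reads were assigned to it. Rps27 (chr3:90213634-90213663, minus strand) and its retrocopy Rps27rt (chr9:114982725-114982754, minus strand) are shown because the next results turn on them. Rplp0 (chr5:115559452-115559481, plus strand) shows a window without such a run within 5 bases, although the gene has a run that starts within 20 bases of the annotated start.
Rps6: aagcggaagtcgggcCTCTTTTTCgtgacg
Rps9: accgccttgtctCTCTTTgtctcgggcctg
Rps2: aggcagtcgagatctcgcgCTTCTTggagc
Rps10: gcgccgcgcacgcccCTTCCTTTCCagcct
Rps27: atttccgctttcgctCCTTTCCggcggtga
Rps27rt: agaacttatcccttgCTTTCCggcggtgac
Rplp0: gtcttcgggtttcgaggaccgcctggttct

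Of the 93 members, 67 were matched by symbol in the promoter table. A tract within 5 bases of an annotated start was present in 31 of the 67 (46.3%), against 5718 of all 27025 genes of the table (21.2%). Within 20 bases it was present in 54 of the 67 (80.6%), against 53.3% of all genes. Only the gene's own strand was searched. Annotated starts can lie some bases from the true start of an mRNA, so a window without a tract says only that these letters are not in that window. The 27 tested ribosomal proteins with a tract within 5 bases had a median change of 0.10 (log2) in LPS against PBS and -0.03 in LPS+DMA against LPS. The 29 without it had 0.11 and 0.01.

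Rps27 and Rps27rt carry the same coding sequence. Rps27 is a zinc-finger protein of the small subunit, and Rps27rt is an intronless copy that lies on the opposite strand within the bounds of Osbpl10 in the deposited table. In GENCODE M21 (GRCm38), Rps27 is at chr3:90212522-90213651 and Rps27rt at chr9:114982366-114982739, both on the minus strand. The 255 coding bases are printed once because the annotated transcripts of both genes hold them with 0 differences. A read that lies inside the coding part therefore cannot tell the genes apart.
Rps27 and Rps27rt: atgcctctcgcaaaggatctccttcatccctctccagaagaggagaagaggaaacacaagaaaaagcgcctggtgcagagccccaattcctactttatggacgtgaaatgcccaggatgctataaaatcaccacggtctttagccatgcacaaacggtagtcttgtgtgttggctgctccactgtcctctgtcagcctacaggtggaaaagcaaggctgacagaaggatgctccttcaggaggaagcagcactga

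Sequencing depth, recovered from the step of 1 read in the deposited values, was 27.5 to 41.4 M reads (megareads) per library, with a median of 34.4 M. Libraries differed in the tissue they held: summed markers of the choroid plexus, the tissue that makes cerebrospinal fluid, ranged over 41.6 to 423 FPKM in PBS, 259 to 2052 with LPS and 23.6 to 510 with LPS+DMA (15 of 15 markers detected in each arm). The 13 markers of cortex and hippocampus summed to 593 to 1044, 41.6 to 1115 and 963 to 1473 FPKM, and the 9 of red blood cells to 131 to 190, 326 to 989 and 108 to 377 FPKM. The 15 markers of monocytes, macrophages and microglia summed to 170 to 208 FPKM in PBS, 320 to 394 with LPS and 137 to 186 with LPS+DMA. Neuronal markers were present in all arms (9 of 9, 1101 to 1462 FPKM). The labels give whole brain, yet Gabra6, a receptor subunit of cerebellar granule cells, exceeded 1 FPKM in only 4 of the 12 libraries, PBS female replicate 1, LPS female replicate 1, LPS male replicate 1 and LPS male replicate 2. Ribosomal RNA made up 0.0389% of the reads in LPS female replicate 2 and 2.88% to 9.79% in the other libraries. The part of this difference in results that turn on LPS female replicate 2 was not tested. The part of these tissue differences in the results below was not tested beyond the fits with marker scores that are given beside them. In bulk tissue, fewer cells of a type and less RNA per cell cannot be told apart.

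The members together held a similar part of the coding transcriptome in the 3 arms. As a share of the summed FPKM of coding genes they made up 3.79% ± 0.239 in the controls, 3.98% ± 0.129 with LPS alone and 3.90% ± 0.482 with LPS+DMA (SD over 4 mice each). In PBS the 4 shares were 3.50% and 3.91% in females and 4.05% and 3.70% in males. In LPS they were 4.08% and 4.09% in females and 3.82% and 3.91% in males, inside or just above the PBS range. In LPS+DMA they were 3.49% and 4.04% in females and 4.52% and 3.55% in males, so this arm held both the lowest and the highest of the 12 values. The ratio of large-subunit to small-subunit FPKM averaged 1.28 ± 0.0210 in PBS, against 1.29 ± 0.0200 with LPS and 1.28 ± 0.0299 with LPS+DMA, which differ by less than the spread within an arm.

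The members moved together from library to library. LPS+DMA male replicate 1 held the highest value of 56 of the 86 tested members, while PBS female replicate 1 held the lowest of 30 and LPS+DMA male replicate 2 the lowest of 28. Measured against the mean of the PBS libraries, the median member stood 0.40 higher (log2) in LPS+DMA male replicate 1, with 82 of 86 members above that mean. The 2 LPS females stood 0.18 and 0.17 higher, the LPS males 0.03 and 0.10 higher, and the other LPS+DMA libraries lay between -0.08 and 0.16. The SD of a tested member within an arm had a median of 0.181 (log2), against 0.220 for the 4389 other coding genes with a mean of at least 10 FPKM. Once the median of the members was subtracted from each library, it was 0.111, and it fell for 70 of the 86. The subtracted median comes from these same members, so part of the fall is built in. The same step was not run for the other coding genes.

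**Figure D1:**
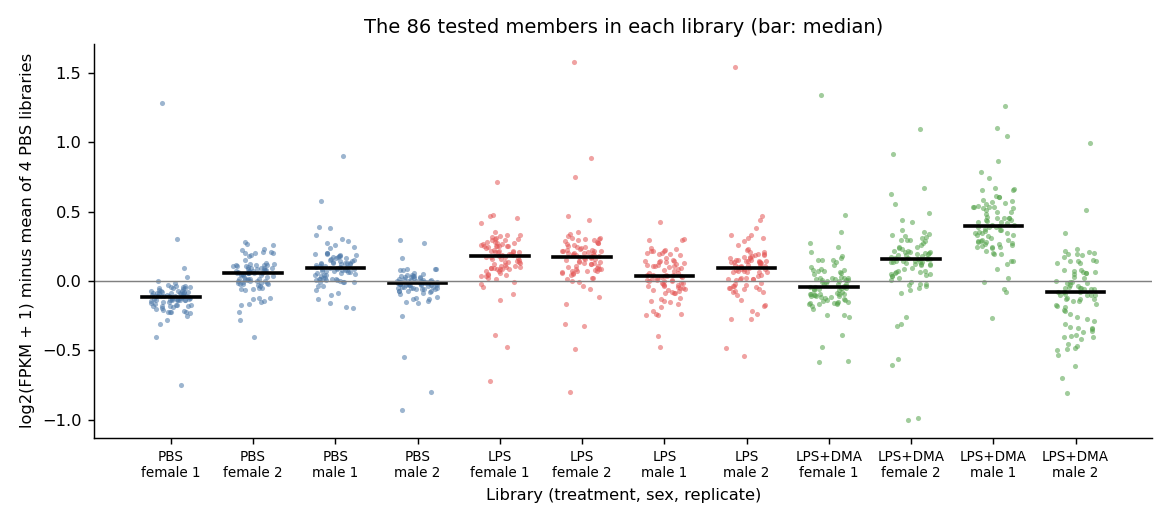
Each point is 1 of the 86 tested members in 1 library (x axis, named by treatment, sex and replicate), and the y axis is its log2(FPKM + 1) minus its mean over the 4 PBS libraries; black bars are medians. The median stands at 0.40 in LPS+DMA male replicate 1 and between -0.12 and 0.18 in the other 11 libraries.

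FPKM is a level per length, so levels can be set side by side between genes. The highest mean over the 12 libraries belonged to Rplp1, an acidic protein of the ribosomal stalk that recruits elongation factors, at 699 FPKM (541 to 976). Rps3a1, a small-subunit protein, followed at 395 FPKM (344 to 478), Rps15, whose tail reaches the decoding site, at 389 (316 to 519), Rps29 at 368 (274 to 437) and Rpl38 at 281 (224 to 321). The lowest value of Rplp1 exceeded the highest of the other 4 of these, while Rps3a1, Rps15 and Rps29 lay within each other's ranges.

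Among the 77 standard ribosomal proteins, 3 had a mean FPKM under 10. Rpl13a, also a part of an interferon-activated translation silencing complex, averaged 5.50 FPKM (4.40 to 6.68). Rps10 averaged 0.674 FPKM (0.173 to 1.15), and Rpl24 averaged 0.292, with at most 24 reads in a library. The paralog Rpl36al, which differs from Rpl36a at 39 of 321 aligned coding bases, averaged 0.225 FPKM. These 4 were the only members with more than 50% of their coding bases inside exons of another gene on the same strand in GENCODE M21, at 90.3% for Rpl13a, 80.1% for Rps10, 83.4% for Rpl24 and 95.3% for Rpl36al. The other gene models were Gm45713, RPS10-NUDT3, Gm28037 and Gm49383, in that order. The 4 members had a median level of 0.483 FPKM, against 76.9 FPKM for the other 89. In the deposited table (GRCm39), Rpl13a is at chr7:44774982-44778185, Rps10 at chr17:27849392-27855643 and Rpl24 at chr16:55786638-55791798, and each is overlapped there by a same-strand model listed at a mean of 0 FPKM. The sources used here do not say how reads over 2 genes were assigned. Its part in these values was not tested, so the 4 levels cannot be read as low expression.

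**Figure D2:**
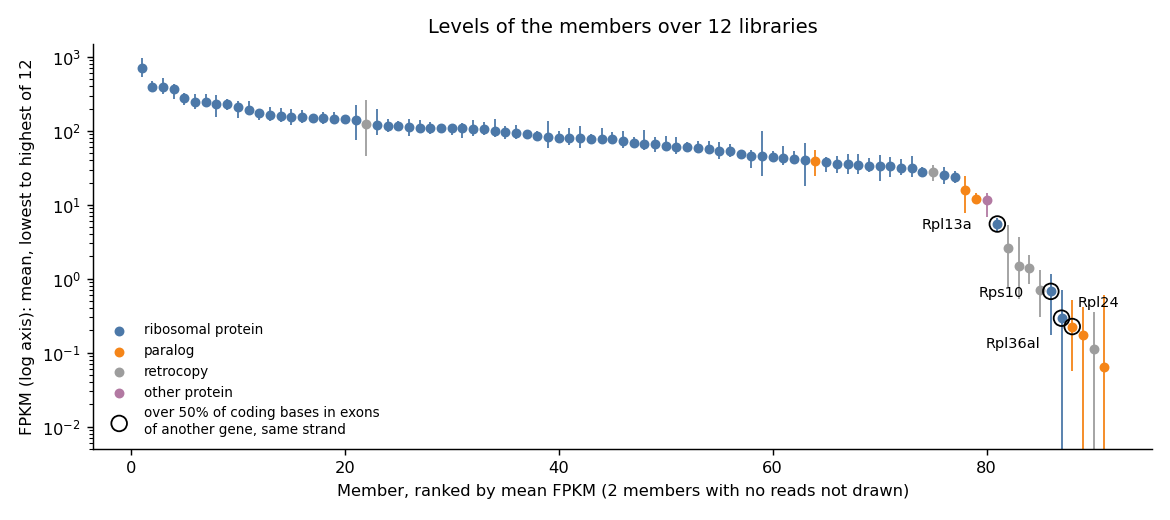
The y axis (log scale) gives FPKM over the 12 libraries, with a point for the mean and a line from the lowest to the highest library, and the x axis ranks the members by mean; colours give the kind of member. Circles mark the 4 members with over 50% of their coding bases in exons of another gene on the same strand, Rpl13a (5.50 FPKM), Rps10 (0.674), Rpl24 (0.292) and Rpl36al (0.225), which lie below nearly all other ribosomal proteins.

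The paralogs were of unequal level. Rpl22l1, the paralog of the RNA-binding protein Rpl22, ranged from 24.4 to 55.1 FPKM, close to Rpl22 at 27.8 to 42.4 FPKM. Rps27l, a p53 target that differs from Rps27 at 52 of 250 aligned coding bases, ranged from 7.87 to 24.5 FPKM, and Rpl7l1 from 10.2 to 14.4. Rpl3l, the striated-muscle paralog of Rpl3, was at 0 in 2 libraries and reached 0.409 FPKM. The testis paralogs were scarcely seen, since Rpl39l was at 0 in 9 libraries and Rpl10l had no read in any. For Rpl10l, 3 reads in a library correspond to 0.0675 to 0.113 FPKM, the upper limit that a count of 0 allows, counting error only. The coding retrocopy Rpl36-ps4 also had no read, and Rps23rg1, a gene derived from Rps23, stayed at or under 0.352 FPKM.

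Near-identical copies took a large part of the signal of several families, which were picked out after their values had been seen. The table lists 321 ribosomal protein pseudogenes, of which 102 passed the filter, and copies held over 10% of the summed FPKM times length in 10 of 77 families. For Rps10 the copies held 95.5%, nearly all of it Rps10-ps2, which shares 452 of 456 aligned coding bases with Rps10. For Rpl17, a large-subunit protein near the exit of the peptide tunnel, 11 copies held 69.8%. Libraries of 1 arm differed in the split between a gene and its copy. Rps27 stood at 75.8, 148, 168 and 144 FPKM in PBS female replicates 1 and 2 and male replicates 1 and 2. Its values were 176, 178, 127 and 91.6 FPKM in LPS and 92.1, 181, 222 and 91.5 in LPS+DMA, in the same order. Rps27rt stood at 221, 80.1, 79.4 and 47.1 FPKM in PBS, 64.6, 83.3, 86.8 and 265 in LPS, and 231, 45.1, 195 and 68.1 in LPS+DMA. Rps27rt was thus above 190 FPKM in 4 libraries, which belong to all 3 arms, and under 90 in the other 8. Of the FPKM times length of the pair, Rps27rt held 8.22% to 51.1%. The pair's sum varied over 2.52-fold, against 2.93-fold for Rps27 and 5.87-fold for Rps27rt. Rpl17 ranged over 4.03-fold, with 99.1 FPKM in LPS female replicate 2, where its copy Rpl17-ps10 was at 52.5 FPKM. In the other 11 libraries Rpl17 lay between 24.6 and 79.2 FPKM and Rpl17-ps10 between 125 and 201, while the sum of the pair varied over 1.98-fold. The copy matches 551 of 555 coding bases of Rpl17. The levels of Rps27, Rps27rt, Rpl17, Rps10 and their copies are therefore uncertain as single genes.

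**Figure D3:**
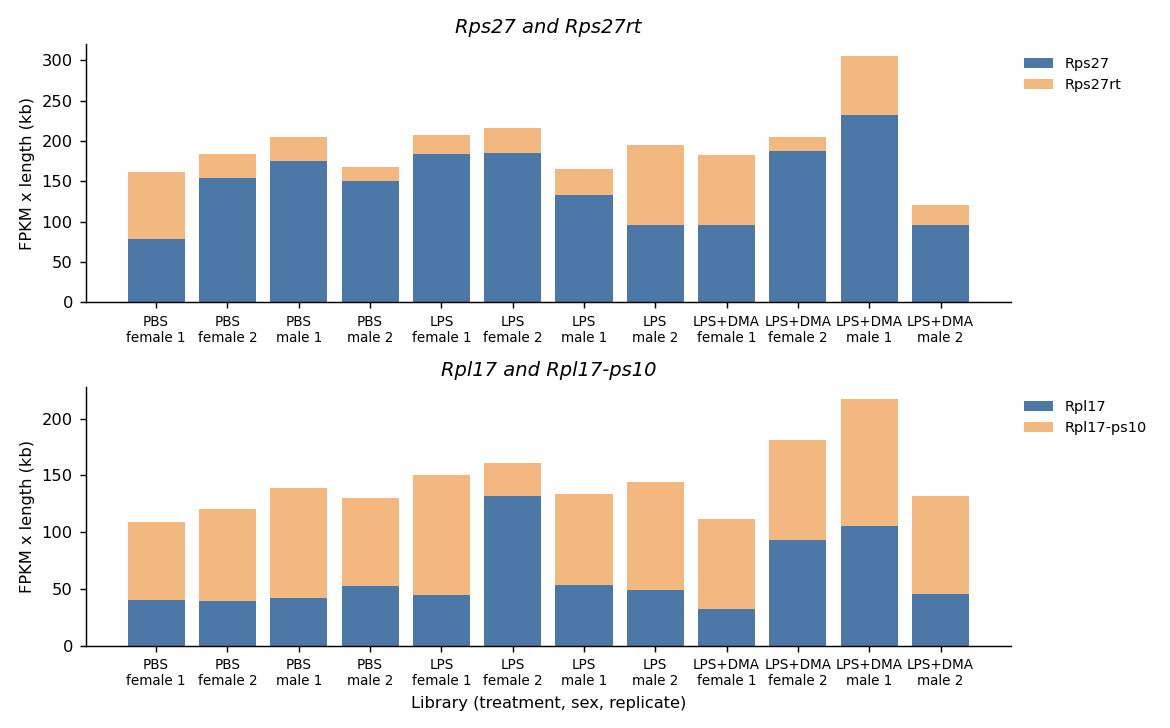
Bars give FPKM times gene length in kilobases (y axis) in each library (x axis), stacked for Rps27 with Rps27rt (upper panel) and Rpl17 with Rpl17-ps10 (lower panel). The copy's part is 8.22% to 51.1% of the Rps27 pair and 18.2% to 70.9% of the Rpl17 pair, and libraries with a large or small copy part occur in all arms for Rps27.

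In LPS against PBS, the question was whether daily LPS changed these mRNAs, and most members were slightly higher without any passing the test. Of the 86, 76 were higher in LPS and 10 lower, with a median change of 0.11 (log2), against a median of -0.01 over all 19571 genes tested, of which 48.3% were higher. The limma fit called 0 members at an adjusted p under 0.05, where 2 of all genes were called (0.0102%). At an unadjusted p under 0.05 it gave 6 members (6.98%), a lower share than the 11.0% of all genes, and the smallest adjusted p of a member was 0.318. The limma fit by voom on recovered reads also called 0, with 3 at an unadjusted p under 0.05. Without LPS female replicate 2 the fit called 672 genes, again with 0 members. In 14 of 86 members (16.3%) all 4 LPS values lay above all 4 PBS values, against 3.59% of all genes tested, and in 1 member, Rpl36a-ps1, all lay below (1.16%, against 3.3% of all genes). The 14 became 24 under plain per-million scaling (27.9% of members, against 5.68% of all genes), 27 without PBS male replicate 1 (31.4%, against 5.38%) and 22 without LPS male replicate 1 (25.6%, against 4.98%). Without any other single library they were 14 to 17 (16.3% to 19.8%, against 3.59% to 11.2%). Large-subunit and small-subunit proteins had nearly equal medians, at 0.10 over 45 and 0.12 over 31.

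Rps9, at the mRNA entry channel of the small subunit, was the member with the smallest p in this comparison. It stood at 66.6 and 69.6 FPKM in PBS females and 69.3 and 70.1 in PBS males, and at 95.8 and 83.6 in LPS females and 79.2 and 87.1 in LPS males. Every LPS value was above every PBS value, and the PBS values were close to each other. The change was 0.32 (log2, SE 0.0999, limma adjusted p = 0.318), and in LPS+DMA the gene stood at 66.6, 79.9, 84.1 and 71.2 FPKM, which overlaps both other arms.

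Rps6, the small-subunit protein that S6 kinases phosphorylate downstream of mTORC1, showed a like order. Its FPKM was 125, 123, 148 and 142 in PBS and 179, 153, 165 and 167 in LPS, females first. The LPS values all lay above the PBS values, the closest pair being 148 and 153. The change was 0.30 (log2, SE 0.103, limma adjusted p = 0.339), and LPS+DMA, at 126, 148, 178 and 147, spanned both arms.

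Rplp0, which anchors the stalk proteins Rplp1 and Rplp2, had 93.7, 101, 97.9 and 95.9 FPKM in PBS and 124, 112, 108 and 122 in LPS. These arms did not overlap either, with a change of 0.26 (SE 0.108, limma adjusted p = 0.414). Among its partners, Rplp1 had a change of 0.04 (SE 0.155) and Rplp2 of 0.10 (SE 0.138), with overlapping arms. No test compared these genes with Rplp0. Rpl11 and Rpl5, which bind 5S ribosomal RNA together and restrain Mdm2 when ribosome assembly fails, changed by 0.22 (SE 0.133) and 0.11 (SE 0.115), and the arms were apart for Rpl11 only. Rpl22 changed by 0.26 (SE 0.117), Rpl36 by 0.29 (SE 0.148) and Rps13 by 0.35 (SE 0.194), each without overlap of the arms and none called (limma adjusted p = 0.447, 0.498 and 0.546).

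The rest of the fixed panel had overlapping arms. Rpsa, which also serves as a laminin receptor, changed by 0.10 (SE 0.0975), Rps3 by 0.16 (SE 0.109) and Rps25, needed by several viral internal ribosome entry sites, by 0.21 (SE 0.146). Rps19 and Rps14, genes affected in Diamond-Blackfan anaemia and the 5q- syndrome, changed by 0.07 (SE 0.133) and 0.15 (SE 0.133). Rps27a, made as a fusion with ubiquitin, changed by -0.05 (SE 0.169), Rpl4, which lines the peptide tunnel, by 0.06 (SE 0.0940), and Rpl10, which joins the subunit last, by 0.03 (SE 0.0940). Rpl38, Rps4x and Rps26 changed by 0.11 (SE 0.131), 0.08 (SE 0.107) and 0.12 (SE 0.175). The largest fitted change was that of Rpl17, at 0.52 (SE 0.401), which rests on LPS female replicate 2 and on the split with its copy. At the other end, Rpl36a-ps1 changed by -0.36 (SE 0.140), Rpl30 by -0.06 (SE 0.183) and Rpl29 by -0.06 (SE 0.204).

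**Figure D4:**
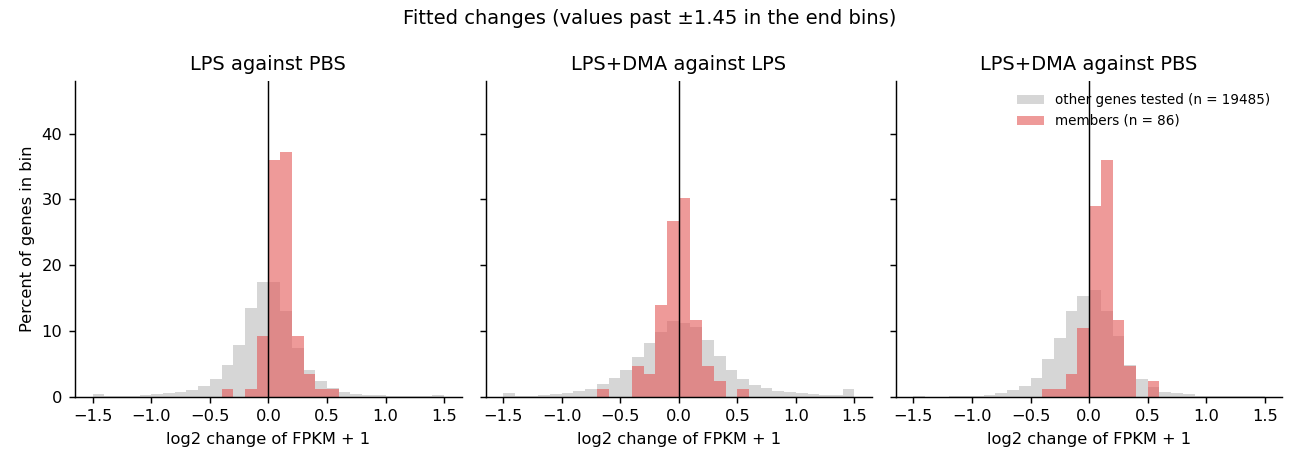
Histograms of the fitted log2 change of FPKM + 1 (x axis) in the 3 treatment comparisons, as a percent of the genes in each set (y axis), for the 86 members and the other 19485 genes tested. The members' median is 0.11 in LPS against PBS and in LPS+DMA against PBS, and 0.00 in LPS+DMA against LPS; under plain per-million scaling the last 2 are -0.03 and -0.19.

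The tissue of the libraries moved with this comparison. With choroid plexus and red blood cell scores in the fit, the median of the members in LPS against PBS was 0.41 rather than 0.11. In that fit 82 of 86 were higher and 0 called (16 at an unadjusted p under 0.05). The median SE of a member was 0.238 there, against 0.133 without the scores. The red blood cell score was 2.78 to 3.14 in PBS and 3.73 to 4.72 in LPS, so this fit separates arm from tissue poorly. With a forebrain minus hindbrain score the median of the members was 0.17. Without the 4 libraries with a cerebellar signal it was 0.15, but that fit holds only LPS female replicate 2 in the LPS arm, which is then assumed to vary like the other arms. The sign of the median was the same in all 25 alternatives run, that fit with its single LPS library included, with 61 of 86 members higher without PBS female replicate 1 as the smallest count.

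LPS+DMA against LPS asked what DMA added to the LPS course, and the members as a group had a median near 0. Of the 86, 43 were higher and 43 lower, with a median of 0.00 (log2), while 9.67% of all genes tested were called. The limma fit called 1 member higher, Rps2, where 5.79% of all genes were called higher, and 1 lower, where 3.88% were called lower. At an unadjusted p under 0.05 it gave 7 members (8.14%, against 28.4% of all genes). The share of members called, 2 of 86, was below that of all genes. The calls over all genes depend on 3 of the LPS libraries, since 11, 7 and 22 genes were called without LPS female replicate 1, male replicate 1 and male replicate 2, none of them members. They depend on the fit as well, with 5 genes called with only the 2 arms in it and 83 with no filter, again without members. With the forebrain minus hindbrain score, or with the choroid plexus and red blood cell scores, 0 genes were called. Both arms were apart in 1 member with higher values, Rps2 (1.16%, against 6.26% of all genes), and in 2 with lower values, Rpl7l1 among them (2.33%, against 5.98%).

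Rps2, a small-subunit protein at the mRNA entry channel (chr17:24937090-24940903, GRCm39), was higher with DMA. It stood at 106 and 130 FPKM in LPS females and 86.7 and 87.5 in LPS males, and at 132 and 195 in LPS+DMA females and 165 and 132 in LPS+DMA males. PBS values were 90.9, 113, 112 and 98.9 FPKM, in the range of LPS. The 4 LPS+DMA values exceeded those of both other arms, although 132 and 130 FPKM were close. The mean rose from 102 ± 20.1 FPKM with LPS alone to 156 ± 30.5 (SD, n = 4), a change of 0.60 (log2, SE 0.155, limma adjusted p = 0.0369). Against PBS the change was 0.57 (SE 0.155, limma adjusted p = 0.324), which did not pass. Over 25 alternatives the adjusted p for LPS+DMA against LPS ran from 0.0123 to 1.00 and the change from 0.26 to 0.71. The call was kept in 13 of them. It was lost under plain per-million scaling (0.41, limma adjusted p = 0.105), with no filter, with only the 2 arms in the fit, in the 3 fits that account for tissue, and when PBS male replicate 2, LPS female replicate 1, LPS male replicate 1, LPS male replicate 2, LPS+DMA female replicate 2 or LPS+DMA male replicate 1 was left out (0.50 to 0.60). The lowest changes were 0.31 with the forebrain minus hindbrain score, 0.30 without the 4 cerebellar libraries, where LPS female replicate 2 alone stands for LPS, and 0.26 with the choroid plexus and red blood cell scores. Rps2 hosts a small nucleolar RNA gene on its own strand, and Snhg9, at a mean of 0.286 FPKM, lies across it on the opposite strand.

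**Figure D5:**
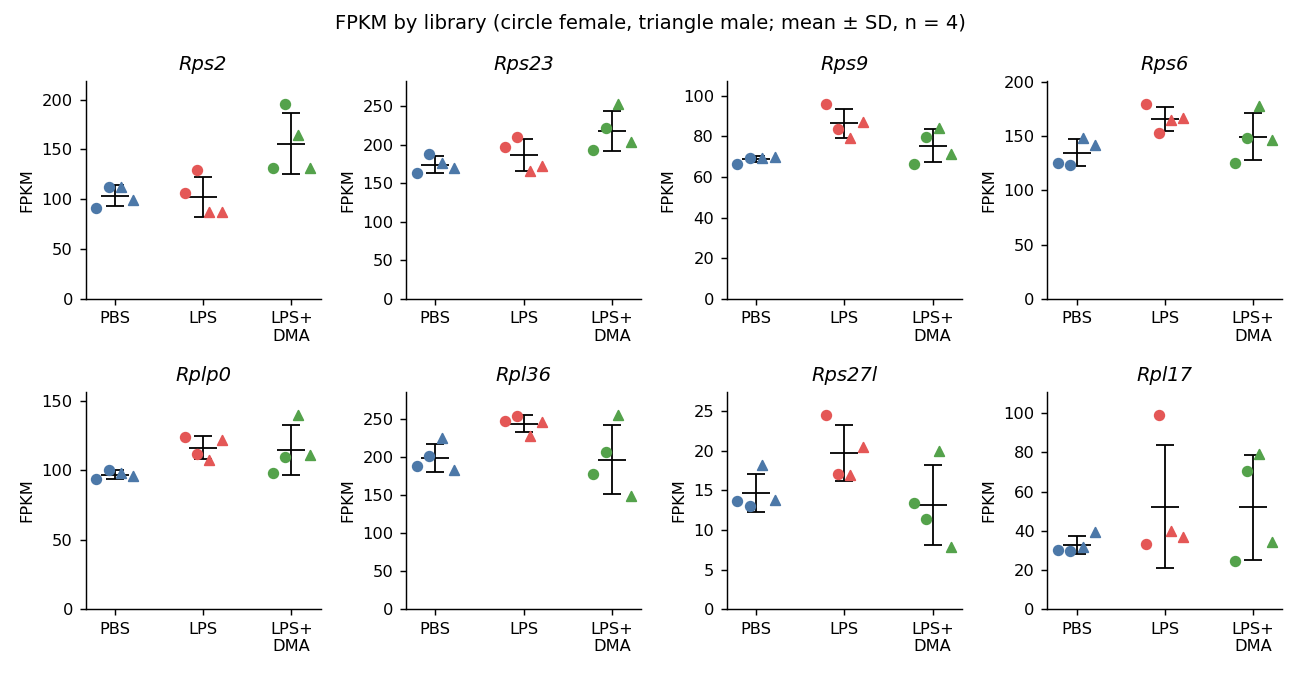
FPKM (y axis, from 0) of 8 members in the 3 arms, with circles for females, triangles for males, and the mean with its SD (n = 4). Rps2 is higher in the 4 LPS+DMA libraries than in all others, Rps23 is higher in LPS+DMA than in PBS, and Rps9, Rps6, Rplp0 and Rpl36 are higher in LPS than in PBS without overlap; Rps27l and Rpl17 overlap.

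The remaining members with the largest changes did not pass the test. Rps27l stood at 24.5, 17.1, 17.0 and 20.4 FPKM in LPS and at 13.5, 11.4, 19.9 and 7.87 in LPS+DMA, which overlap through LPS+DMA male replicate 1. Its change was -0.60 (SE 0.231, limma adjusted p = 0.116). Rpl36 followed the same order, at 248, 254, 228 and 246 against 177, 206, 255 and 148 FPKM, with a change of -0.34 (SE 0.148, limma adjusted p = 0.162). Rps13 changed by -0.30 (SE 0.194), and Rpl12, which forms the base of the stalk with Rplp0, by 0.35 (SE 0.15, limma adjusted p = 0.154). Rplp1 changed by 0.29 (SE 0.155) and Rpl30 by 0.24 (SE 0.183). All 3 tested paralogs were lower, with a median of -0.26, and all 6 tested retrocopies were higher, with a median of 0.08; the values in each set are few and none was called.

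LPS+DMA male replicate 1, the library with the highest member values, set part of this comparison. Without it, 3 of 86 members were called lower and 0 higher, where 580 and 926 of all 19571 genes tested were. The 3 were Rps27l (-0.83, limma adjusted p = 0.0384), Rps13 (-0.52, limma adjusted p = 0.0412) and Rpl36 (-0.49, limma adjusted p = 0.04). The median of the members was then -0.12, and 15 of 86 (17.4%) lay below LPS without overlap, against 8.63% of all genes. Rps2 was at 0.53 in that fit (limma adjusted p = 0.0697). The adjusted p over the alternatives reached 1.00 for each of these 4 genes.

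The scaling of the libraries also set the split. The deposited values carry factors of 1.03 to 1.10 in LPS+DMA against 0.917 to 0.963 in LPS and 0.952 to 0.989 in PBS, relative to plain per-million scaling. Under plain per-million scaling the median of all genes in LPS+DMA against LPS was -0.11, and that of the members -0.19, with 10 of 86 higher. The limma fit then called 0 members higher and 7 lower, among them Rps9 (-0.39), Rpl13a (-0.43), Rpl36 (-0.53), Rpl7l1 (-0.33), Rps27l (-0.78) and Rpl23a (-0.34), while 589 of all genes were called higher and 2285 lower. Relative to the shift of all genes, the members' median was lower by less than 0.1. With the choroid plexus and red blood cell scores the median was -0.21 and 0 members were called.

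LPS+DMA against PBS compared the doubly treated mice with the controls. The limma fit called 0 of 86 members, against 0.0102% of all genes, and gave 8 at an unadjusted p under 0.05 (9.3%, against 11.4% of all genes). By voom these counts were 0 and 7. Of the 86, 72 were higher, with a median of 0.11 (log2), against 0.00 for all genes tested. Without LPS+DMA male replicate 1, 44 were higher, with a median of 0.01. Under plain per-million scaling 28 were higher, with a median of -0.03, against -0.10 for all genes. The LPS+DMA values lay above all PBS values in 3 members, Rps2, Rps20 and Rps23 (3.49%, against 3.71% of all genes), and below them in 0 (against 2.93% of all genes). The 3 became 11 without LPS+DMA female replicate 1 (12.8%, against 5.96%), 9 without LPS+DMA male replicate 2 (10.5%, against 7.0%), 5 without PBS female replicate 2 (5.81%, against 7.65%) and 1 under plain per-million scaling. Rps23, a protein of the decoding centre, stood at 163, 188, 177 and 169 FPKM in PBS and at 193, 222, 252 and 204 in LPS+DMA, a change of 0.32 (SE 0.111, limma adjusted p = 0.379). After Rps2, the highest changes were Rpl17 at 0.51 (SE 0.401), Rpl12 at 0.37 (SE 0.15) and Rplp1 at 0.33 (SE 0.155). Rps10, at -0.33 (SE 0.187), and Rpl13a, at -0.24 (SE 0.109), were the lowest. This comparison and LPS against PBS share the PBS libraries, and the 2 with LPS share the LPS libraries, so their values stand side by side only.

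Sex made no difference that passed the test. In the same fit 0 of 86 members were called between males and females, where 7 of all genes were (0.0358%), with 1 member at an unadjusted p under 0.05 by limma (1.16%, against 9.02% of all genes) and 1 by voom. No member passed a test of the difference between the sexes in any treatment comparison (smallest limma adjusted p = 0.838, with 1 member at an unadjusted p under 0.05 in each).

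Genes around the ribosome were read from lists of the pathway. Of the 38 translation initiation factors, 9 elongation factors, 55 ribosome biogenesis genes and 3 ribosomal proteins with other names (Fau and Rack1 among them), 0 were called in any treatment comparison. Of all genes tested, 9.67% were called in LPS+DMA against LPS. Initiation factors had medians of 0.07 in LPS against PBS and 0.03 in LPS+DMA against LPS, and biogenesis genes -0.04 and 0.10. Among 20 other TOP mRNAs, 1 was called higher and 1 lower in LPS+DMA against LPS, where 5.79% and 3.88% of all genes were. Nap1l1, a histone chaperone, averaged 35.9 ± 8.72 FPKM in LPS and 56.3 ± 13.5 in LPS+DMA (0.63, SE 0.177, limma adjusted p = 0.0472). Vim, an intermediate filament of reactive astrocytes and vessels, averaged 17.0 ± 4.82 and 8.83 ± 1.94 FPKM (-0.86, SE 0.208, limma adjusted p = 0.0316), and 8.22 ± 2.12 in PBS. Over 25 alternatives the calls were kept in 7 for Nap1l1 and 15 for Vim.

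Among 22 genes of mTORC1 and TOP control, 2 were called higher and 0 lower in LPS+DMA against LPS, where 5.79% and 3.88% of all genes were. In the other treatment comparisons 0 were called. Pdcd4, an inhibitor of the initiation helicase eIF4A, averaged 16.8 ± 3.35 FPKM in LPS and 30.4 ± 7.45 in LPS+DMA (0.81, SE 0.171, limma adjusted p = 0.0227). Rps6ka2, a kinase of the p90 S6 kinase family, averaged 5.07 ± 1.71 and 8.75 ± 0.913 FPKM (0.71, SE 0.167, limma adjusted p = 0.0281). Their PBS means, 20.5 and 6.54 FPKM, lay between. The calls were kept in 17 of 25 alternatives for Pdcd4 and 14 for Rps6ka2. None of these 4 genes was called with either set of tissue scores, under which the limma fit called 0 of all 19571 genes in LPS+DMA against LPS, nor without the 4 cerebellar libraries or without LPS female replicate 1, male replicate 1 or male replicate 2. Of 77 tested proteins of the mitochondrial ribosome, which is built from other genes, 5 were called lower and 0 higher in LPS+DMA against LPS, where 3.88% and 5.79% of all genes were, with a median of -0.19. The 5 became 0 with either set of tissue scores, with only the 2 arms in the fit, without the cerebellar libraries and without LPS female replicate 1, male replicate 1 or male replicate 2, and 30 under plain per-million scaling. Without any other single library they ranged from 2 to 10, the highest without LPS female replicate 2. No test compared them with the members. In LPS against PBS, 61 of the 77 were higher and 0 called, with a median of 0.08. Of the 102 tested ribosomal protein pseudogenes, 0 were called, and 57 were higher in LPS against PBS, with a median of 0.01.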

How the data were processed

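The authors deposited 1 table of gene FPKM for 12 libraries, and another deposited column holds the gene length in bases. The submitters' processing notes name the build GRCm39 and tools that include fastp, HISAT2 2.2.1, featureCounts 2.0.6, DESeq2 1.42.0 and edgeR 4.0.16, with no role or order. The labels' protocols describe preparations with and without strand marking and do not say which was used. FPKM times length was a whole multiple of 1 step per library for 100% of values up to 1000 reads (tolerance 0.1 reads), which gave the read totals. Libraries are from separate mice, per the labels, and no 2 held identical values.

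A gene was tested if 2 or more libraries reached 0.5 FPKM (19571 genes). Values entered as log2(FPKM + 1), which understates changes of low genes, in R 4.3.3 with limma 3.58.1 (trend, robust). The model held arm and sex over all 12 libraries, and p-values were Benjamini-Hochberg adjusted over all genes tested. The fit was tested on simulated data. The members, lists and rules were chosen with earlier results of these data known. Named members were those called, the 5 highest and 5 lowest changes per treatment comparison, the 5 highest and lowest means, those under the filter, a panel by role, and up to 3 called genes per pathway list. Genes outside it (Rps27, Rps27rt, Rpl7a, Rpl23a, Rps20, pseudogenes and the named copies) were chosen after their values were seen. Alternatives covered the pseudocount, filter, scaling, variance model, terms, voom and each library left out. Coding sequences and exon overlaps came from GENCODE M21 (GRCm38) by gene ID, for 93 of 93 members, and start windows from RefSeq (GRCm38.p6). Local alignments compared a gene's coding bases with its copy's transcript. A few genes covered by these rules are not reported here.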

Additional observations from a re-analysis of the deposited data

Results flagged for a closer look

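Within arms of 4 libraries, 127 groups of values over 45 named members were examined for 1 library far from the other 3, by Dixon's gap test, and 5 were found. Chance alone marks about 1 in 20 such groups. Rpl17 stood at 99.1 FPKM in LPS female replicate 2 and between 33.5 and 40.1 in the other LPS libraries, with Rpl17-ps10 low in the same library. Rps27l stood at 18.1 FPKM in PBS male replicate 1 (13.0 to 13.7 in the others), and Rpl22l1 at 42.4 in LPS female replicate 2 (43.2 to 43.4), a gap of under 1 FPKM. Among the low members, Rpl36a-ps1 stood at 2.11 FPKM in PBS female replicate 2 (at most 1.49 in the others) and Rps23rg1 at 0.235 in PBS male replicate 2 (0 to 0.0391).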

How the results depend on the processing

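Members called in LPS against PBS, LPS+DMA against PBS and male against female were 0 in every alternative run. In LPS+DMA against LPS the 2 calls became 0 with no filter, with only the 2 arms in the fit, with the forebrain minus hindbrain score, with the choroid plexus and red blood cell scores, and without the cerebellar libraries, which leaves 1 LPS library. They became 1 with the median ratio over other coding genes, without variance trend, without the sex term and with voom, and 7 with plain per-million scaling. With 1 library left out they ranged from 0 to 3. Why these counts moved was not tested. With the choroid plexus and red blood cell scores, the median change of the members in LPS against PBS was 0.412. The median SE of a member was 0.238 in that fit. In LPS+DMA against LPS the median change was -0.208 with those scores and -0.191 with plain per-million scaling. With 1 library left out the 3 medians ranged from 0.077 to 0.145, from -0.123 to 0.068 and, for LPS+DMA against PBS, from 0.007 to 0.186. The members' share of coding signal was 1.46%, 1.61% and 1.48% in PBS, LPS and LPS+DMA when counted in fragments, and 4.4%, 4.66% and 4.6% without mitochondrially encoded genes. Single named members (39) gave 2922 alternative values, of which 2701 kept direction and side of the threshold, 33 lost and 8 gained a call, 180 changed sign without a call, and 0 called values reversed. With the replicate number as a block, 1 member was called in LPS+DMA against LPS, Rps2. Deviations of same-numbered libraries correlated between -0.0705 and 0.452, not all above 0.1. With 2 mice per sex and arm, these values cannot settle whether the numbers pair the mice.

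With 4 mice per arm, the median SE of a member's change was 0.133 (log2), so shifts of the size of the median in LPS against PBS could not be resolved for single members. Depth was not limiting for members above a few FPKM, while members under 1 FPKM rest on few reads. Single-gene levels depend on how reads over copies and overlapping genes were assigned, which the sources used here do not state.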

Other observations

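Rpl7a, a large-subunit protein chosen here after its values were seen, varied more between libraries than any other standard ribosomal protein with a mean above 10 FPKM except Rpl17. It stood at 46.3, 28, 44.5 and 33.5 FPKM in PBS, 52.4, 21, 44.0 and 51.1 in LPS, and 44.4, 18.2, 68.9 and 35.9 in LPS+DMA, females first. The second female of each arm had the lowest value of its arm. Rpl7a-ps5, which matches 783 of 792 aligned coding bases, held 8.22% to 33.7% of the pair's FPKM times length, and the pair's sum still varied over 3.09-fold.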
